A study of Mus musculus with 12 samples.

Results

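The interferon-gamma induced GTPases described here are a set of 10 named genes: Gbp2, Gbp3, Gbp4, Gbp6, Gbp7, Igtp, Irgm1, Irgm2, Iigp1 and Tgtp1. They were chosen by name, as the probes whose gene name in the array files is one of these, and 12 of the 55681 probes on the array carry such a name. The probes were compared in whole livers of BALB/c mice that lack interleukin-18 (knockout) at 6 and 12 weeks of age and of wild type BALB/c mice at 6 and 12 weeks, with 3 arrays in each of the 4 groups and no treatment in any of them. The labels call the arrays of a group biological replicates. They give neither the sex of the mice nor a cage or litter.

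Guanylate binding proteins (GBPs) and immunity-related GTPases (IRGs) are enzymes that gather on the membranes of vacuoles holding bacteria or protozoa and help to break those vacuoles open. Interferon-gamma is their main inducer: signals from its receptor act through GAS elements and also induce the factor IRF1, which binds interferon-stimulated response elements. Interleukin-18, released by Kupffer cells among others, acts with interleukin-12 on natural killer (NK) cells and T cells of the liver to release interferon-gamma.

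Of the 10 names, 9 were found, and 9 genes could be tested with 11 probes. The name Gbp7 is on no probe. A probe named Gbp6 carries the accession NM_145545, which RefSeq now assigns to Gbp7, and it is called Gbp7 below. A second probe named Gbp6, from the accession AY496685, was well above background on 0 of the 12 arrays and was not tested. On mm9 the Gbp7 probe lies at chr3:142209379-142209438, the Gbp3 probe at chr3:142236032-142236091 and the Gbp2 probe at chr3:142300719-142300778. Gbp4 was read at chr5:105544852-105544911. Irgm1, Tgtp1, Igtp and Irgm2 lie on chromosome 11, with the Irgm1 probe used at chr11:48679069-48679128, the Tgtp1 probe at chr11:48799587-48799646, the Igtp probe at chr11:58020927-58020986 and the Irgm2 probe at chr11:58036093-58036152. Iigp1 and Irgm1 had 2 probes each, and the other genes 1. The exon or untranslated region under each probe is not annotated in the tables used here.

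The promoters are shown because the members that could be searched share a short element just ahead of their gene starts. RefSeq windows (GRCm38.p6, the C57BL/6J reference, from 250 bases before to 50 after a gene start) were at hand for 7 of the 9 measured genes. Gbp4 and Iigp1 had no window, so the element was not looked for in them. The motif GAAANNGAAA, the core of an interferon-stimulated response element, was searched on both strands. It was found in windows of 7 of these 7 genes, against 3.99% of the 27025 genes with a window (3.44% of 32851 windows). Gbp3 has 2 windows, and 7 of the 8 member windows hold the motif. The motif TTCNNNGAA, a GAS element, reads the same on both strands. It was found in 4 of the 7 genes, Gbp7, Igtp, Irgm2 and Tgtp1, against 9.55% of all genes (8.30% of windows). A match describes the reference letters and is not evidence of binding, and BALB/c sequence was not read. In the stretches below, written 5′ to 3′ on the gene's strand, capitals mark matches to either motif, read as GAAANNGAAA or as its reverse complement TTTCNNTTTC, and as TTCNNNGAA. Gbp7 is from chr3:142530219-142530322 (plus strand), Gbp3 from chr3:142559969-142560044 (plus), Gbp2 from chr3:142620574-142620643 (plus), Irgm1 from chr11:48871405-48871480 (minus), Tgtp1 from chr11:48992284-48992364 (minus), Igtp from chr11:58199481-58199561 (plus) and Irgm2 from chr11:58214872-58214952 (plus).
Gbp2: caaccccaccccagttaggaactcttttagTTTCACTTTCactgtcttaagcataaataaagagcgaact
Gbp3: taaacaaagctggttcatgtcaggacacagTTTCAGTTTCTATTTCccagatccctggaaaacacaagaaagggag
Gbp7: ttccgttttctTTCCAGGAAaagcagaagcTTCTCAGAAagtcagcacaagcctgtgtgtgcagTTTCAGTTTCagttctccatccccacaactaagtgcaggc
Igtp: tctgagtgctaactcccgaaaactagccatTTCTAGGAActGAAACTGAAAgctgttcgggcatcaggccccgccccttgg
Irgm2: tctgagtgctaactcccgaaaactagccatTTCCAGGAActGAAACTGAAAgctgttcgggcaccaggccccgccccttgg
Tgtp1: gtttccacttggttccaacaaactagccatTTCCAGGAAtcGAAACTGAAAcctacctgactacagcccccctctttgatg
Irgm1: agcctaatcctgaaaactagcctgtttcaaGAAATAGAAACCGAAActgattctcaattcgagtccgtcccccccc

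In Gbp3 and Irgm1 2 matches overlap, so that 3 of the 4-base half-sites follow each other. The stretches of Igtp and Irgm2 have the same letter at 79 of 81 positions. In Igtp, Irgm2 and Tgtp1 the GAS match stands just ahead of the response element. The Igtp element begins 34 bases, the Irgm2 element 64 bases and the Tgtp1 element 77 bases before the annotated start of its gene. The Gbp2, Gbp3 and Gbp7 elements run in the reverse complement orientation and begin 59, 45 and 53 bases before theirs.

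Levels are on the log2 scale, with each array's processed signals set against their own 75th percentile, so 0 is the level that 75% of the probes do not exceed and 1 unit is a doubling. They are read per probe, and levels of different genes are not set against each other, except where the linear levels of a list are summed. The probe of the targeted gene Il18, which checks the labels, averaged -0.14 ± 0.19 in 6-week knockout and 2.40 ± 0.05 in 6-week wild type livers, and -0.04 ± 0.08 in 12-week knockout and 2.30 ± 0.18 in 12-week wild type livers (SD, n = 3 each). All 12 hepatocyte markers were well above background on every array. The arrays lay on 2 slides: all knockout arrays on slide 2, all 6-week wild type arrays on slide 1, and the 12-week wild type split, with its replicate 1 on slide 1 and the other 2 on slide 2. At 6 weeks genotype and slide therefore cannot be told apart within the age, and at 12 weeks a comparison inside slide 2 is possible. In the wild type, age and slide largely move together, since only replicate 1 of 12 weeks shares slide 1 with the 6-week arrays. Differences below come from limma, fitted to all 12 arrays and 22131 genes, with p-values adjusted by the Benjamini-Hochberg method over those genes and a threshold of 0.05.

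**Figure D1:**
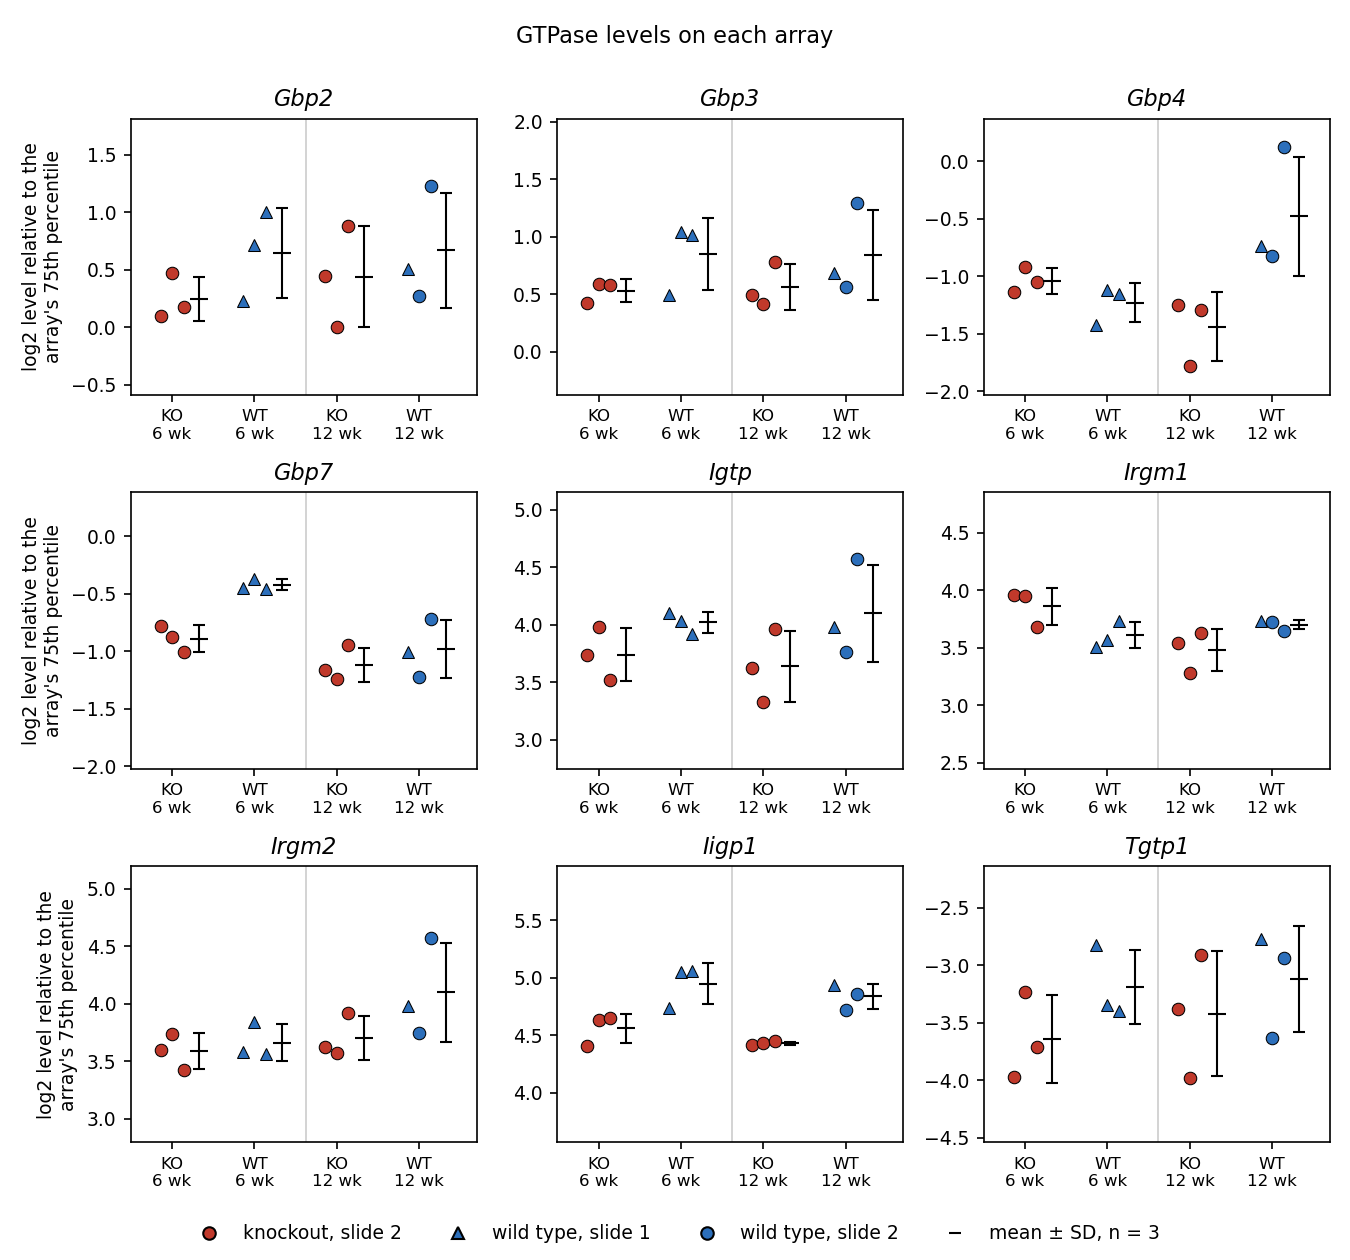
Each panel shows 1 gene, with its log2 level (0 at the 75th percentile of the array) on the vertical axis and the 4 groups on the horizontal axis; circles are arrays of slide 2, triangles arrays of slide 1, and bars give the mean ± SD of 3 arrays. Iigp1 in the knockout lies below the wild type at both ages, Gbp7 does so at 6 weeks and Gbp4 at 12 weeks.

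Iigp1, on chromosome 18, was the member that passed the threshold as lower in the knockout at both ages. The differences of Gbp2, Gbp3, Gbp7, Igtp, Irgm2 and Tgtp1 were also below 0 at both ages but did not pass at both. Iigp1 encodes Irga6, an effector IRG that coats the vacuole of Toxoplasma in mouse cells. At 6 weeks its brighter probe read 4.41, 4.63 and 4.65 in the knockout, against 4.74, 5.05 and 5.06 in the wild type. Every knockout array was below every wild type array, with a gap of 0.1 or less between the nearest pair. The difference was -0.39 ± 0.11 (SE), a 1.31-fold lower level, with a limma adjusted p of 0.0289. At 12 weeks the probe read 4.42, 4.43 and 4.45 in the knockout, against 4.94, 4.72 and 4.86 in the wild type. The knockout arrays lay within 0.03 of each other and again did not overlap with the wild type. The difference was -0.41 ± 0.11, 1.33-fold lower, with an adjusted p of 0.0449. Averaged over both ages Iigp1 was lower by 0.40 ± 0.08 on the log2 scale (log2 difference -0.40, adjusted p = 0.00745 by limma), and the difference at 12 weeks minus that at 6 weeks was -0.02 ± 0.15. In order of mean level the groups ran 4.43 in 12-week knockout, 4.56 in 6-week knockout, 4.84 in 12-week wild type and 4.95 in 6-week wild type, and neither pair of ages differed beyond its spread.

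The second Iigp1 probe gave the same order on its own scale. It read 3.19, 3.34 and 3.38 in the 6-week knockout, against 3.41, 3.75 and 3.76 in the 6-week wild type. At 12 weeks it read 3.12, 3.19 and 3.16 in the knockout, against 3.61, 3.34 and 3.63 in the wild type. Knockout and wild type did not overlap at either age. Fitted with every probe on its own, its differences of -0.34 ± 0.12 at 6 weeks and -0.37 ± 0.12 at 12 weeks missed the threshold (limma adjusted p = 0.0644 and 0.0835), and its average over both ages passed it (-0.35 ± 0.08, adjusted p = 0.0171).

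The slide moves with the 6-week result. With the slide as a fixed block, which leans on the 1 wild type array of 12 weeks outside slide 2, the 6-week difference of the brighter Iigp1 probe was -0.24 (adjusted p = 0.554); as a random block it gave -0.33 (adjusted p = 0.215). At 12 weeks, inside slide 2 alone, it was -0.36 (adjusted p = 0.102). Leaving out single arrays gave -0.49 to -0.31 at 6 weeks, and the call was lost without wild type replicates 2 or 3 or knockout replicates 1 or 2 of that age (adjusted p from 0.0571 to 0.0964). At 12 weeks it gave -0.47 to -0.36, with the call lost in 9 of 12 cases (adjusted p from 0.0548 to 0.119). These were each knockout array of 12 weeks, wild type replicates 1 and 3 of 12 weeks, and replicates 2 and 3 of both 6-week groups. The average over both ages kept its call without any single array, and was -0.30 with the slide as a fixed block (adjusted p = 0.265).

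Gbp4, a guanylate binding protein of the chromosome 5 cluster, was lower in the knockout at 12 weeks. It read -1.25, -1.78 and -1.29 in the 12-week knockout, against -0.74, -0.82 and 0.12 in the 12-week wild type. The groups did not overlap, and wild type replicate 3 stood well above the other two wild type arrays. The difference was -0.96 ± 0.24, a 1.95-fold lower level (limma adjusted p = 0.0359). At 6 weeks it read -1.14, -0.92 and -1.05 in the knockout, against -1.42, -1.12 and -1.15 in the wild type. These groups overlapped, with a difference of 0.19 ± 0.24 (adjusted p = 0.585), which turned to -0.20 with the slide as a fixed block.

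For Gbp4 the 12-week wild type arrays were all above the 6-week wild type arrays (0.75 ± 0.24, adjusted p = 0.0781), and the 12-week knockout arrays were all below the 6-week knockout arrays (-0.40 ± 0.24, adjusted p = 0.370). Neither age difference passed the threshold in limma. With the slide as a fixed block the wild type age difference was 0.49 (limma adjusted p = 0.48). It was 0.45 without replicate 3 of the 12-week wild type and 0.88 without replicate 1 (limma adjusted p = 0.136 and 0.0481). The change of the genotype difference with age was -1.15 ± 0.33, and its limma adjusted p of 0.0548 missed the threshold. That p fell to between 0.0378 and 0.0473 with normexp background correction, with genes limited to those well above background on all 12 arrays, or without any single 12-week wild type array. It was higher, at 0.116, with no filter on dim probes, and between 0.0682 and 0.12 without any single array of the other 3 groups. With the slide as a fixed block the change was -0.89 (adjusted p = 0.221), and as a random block -1.05 (adjusted p = 0.101). The 12-week genotype difference was -0.66 without wild type replicate 3 (adjusted p = 0.0408) and -1.09 inside slide 2 (adjusted p = 0.0858). Its call was also lost without any 12-week knockout array or without replicate 2 or 3 of either 6-week group (adjusted p from 0.0514 to 0.109).

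Gbp7, a guanylate binding protein linked in mouse macrophages to assembly of the NADPH oxidase, was lower in the knockout at 6 weeks. It read -0.78, -0.88 and -1.01 in the 6-week knockout, against -0.45, -0.37 and -0.46 in the 6-week wild type. The wild type arrays lay within 0.1 of each other and above all knockout arrays. The difference was -0.47 ± 0.13, 1.38-fold lower (limma adjusted p = 0.0294). At 12 weeks Gbp7 read -1.16, -1.24 and -0.95 in the knockout, against -1.01, -1.22 and -0.72 in the wild type. These overlapped (-0.13 ± 0.13, adjusted p = 0.559). In the wild type Gbp7 was lower at 12 than at 6 weeks by 0.56 ± 0.13 (log2 difference -0.56, adjusted p = 0.0255), with no overlap between the ages.

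The 6-week wild type, all on slide 1, was thus the group that stood apart for Gbp7. In order, the means were -1.12 in 12-week knockout, -0.98 in 12-week wild type, -0.89 in 6-week knockout and -0.42 in 6-week wild type, and the first 3 overlapped with their neighbours. The change of the genotype difference with age was 0.33 ± 0.18 (adjusted p = 0.284). With the slide as a fixed block the 6-week difference was -0.51 (adjusted p = 0.294) and the wild type age difference -0.59 (adjusted p = 0.124). The 6-week call was lost without any 6-week wild type array or knockout replicate 2 or 3 (adjusted p from 0.0649 to 0.0895), and the age call without any 6-week wild type array or replicate 2 of the 12-week wild type (adjusted p from 0.0624 to 0.081). Averaged over both ages Gbp7 passed narrowly (-0.30 ± 0.09, adjusted p = 0.042), and that call was lost without 10 of the 12 arrays in turn (adjusted p from 0.0513 to 0.0869), the exceptions being wild type replicate 2 and knockout replicate 3 of 12 weeks.

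Irgm1 and Irgm2, with Igtp (Irgm3), are the regulatory IRGs that hold the effector IRGs in an inactive state on the cell's own membranes. Irgm1 read 3.96, 3.95 and 3.68 in the 6-week knockout, against 3.51, 3.57 and 3.73 in the 6-week wild type. The groups overlapped through knockout replicate 3 and wild type replicate 3, and the difference of 0.26 ± 0.11 had an adjusted p of 0.122 in limma. At 12 weeks Irgm1 read 3.54, 3.28 and 3.63 in the knockout, against 3.73, 3.72 and 3.65 in the wild type. All knockout arrays were below all wild type arrays, with a difference of -0.22 ± 0.11 (adjusted p = 0.265).

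Within the knockout, Irgm1 at 12 weeks was below 6 weeks on every array (-0.38 ± 0.11, adjusted p = 0.0723), a difference that passed only with normexp background correction (-0.36, adjusted p = 0.0432). The change of its genotype difference with age was -0.47 ± 0.16 (adjusted p = 0.0872). Its second probe gave 0.36 ± 0.14 at 6 weeks and -0.18 ± 0.14 at 12 weeks, with overlapping groups at both ages. Between the knockout ages the second probe gave -0.42 ± 0.14, and the ages overlapped (limma adjusted p = 0.107).

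Irgm2 read 3.60, 3.74 and 3.42 in the 6-week knockout, against 3.58, 3.84 and 3.56 in the 6-week wild type. At 12 weeks it read 3.62, 3.57 and 3.92 in the knockout, against 3.98, 3.75 and 4.57 in the wild type. Both comparisons overlapped (-0.07 ± 0.19 at 6 weeks and -0.39 ± 0.19 at 12 weeks, limma adjusted p = 0.810 and 0.241). Igtp read 3.74, 3.98 and 3.52 in the 6-week knockout, against 4.10, 4.03 and 3.92 in the 6-week wild type. At 12 weeks it read 3.62, 3.33 and 3.96 in the knockout, against 3.98, 3.76 and 4.57 in the wild type. Its groups overlapped at both ages, with differences of -0.27 ± 0.22 and -0.47 ± 0.22 (adjusted p = 0.386 and 0.216).

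The Igtp probe was printed 10 times on each array, and the SD of log2 signal over these spots was 0.022 to 0.069 within an array. These spots share 1 labelled RNA and 1 hybridization, so their SD covers noise between spots and no other step of the measurement. The SD between arrays of a group was 0.23 in the 6-week knockout, 0.09 in the 6-week wild type, 0.31 in the 12-week knockout and 0.42 in the 12-week wild type.

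Gbp2 and Gbp3, both on chromosome 3 and recruited to pathogen vacuoles, did not pass the test in any comparison. Gbp2 averaged 0.25 ± 0.19 in the 6-week knockout and 0.65 ± 0.39 in the 6-week wild type (SD, n = 3 each), a difference of -0.40 ± 0.29 (limma adjusted p = 0.343). At 12 weeks its knockout mean was 0.44 ± 0.44 and its wild type mean 0.67 ± 0.50 (SD, n = 3 each), with an adjusted p of 0.674 in limma. Gbp3 averaged 0.53 ± 0.10 in the 6-week knockout and 0.85 ± 0.31 in the 6-week wild type, and 0.56 ± 0.20 in the 12-week knockout and 0.84 ± 0.39 in the 12-week wild type (SD, n = 3 each). Its differences were -0.32 ± 0.20 at 6 weeks and -0.28 ± 0.20 at 12 weeks, and the groups overlapped at both ages. The 12-week value rested on single arrays, at -0.06 without wild type replicate 3 and -0.42 without wild type replicate 2.

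Tgtp1 encodes Irgb6, another effector IRG. Its probe was dim, well above background on 11 of the 12 arrays, and also lists the accession of the near-identical neighbour Tgtp2, so signal of the pair cannot be told apart there. It averaged -3.64 ± 0.38 in the 6-week knockout and -3.19 ± 0.32 in the 6-week wild type, and -3.42 ± 0.54 in the 12-week knockout and -3.12 ± 0.46 in the 12-week wild type (SD, n = 3 each), with overlap throughout. A brighter probe named Tgtp2 averaged 2.28 ± 0.48 in the 12-week knockout and 3.32 ± 0.56 in the 12-week wild type (-1.04 ± 0.29, limma adjusted p = 0.0557).

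**Figure D2:**
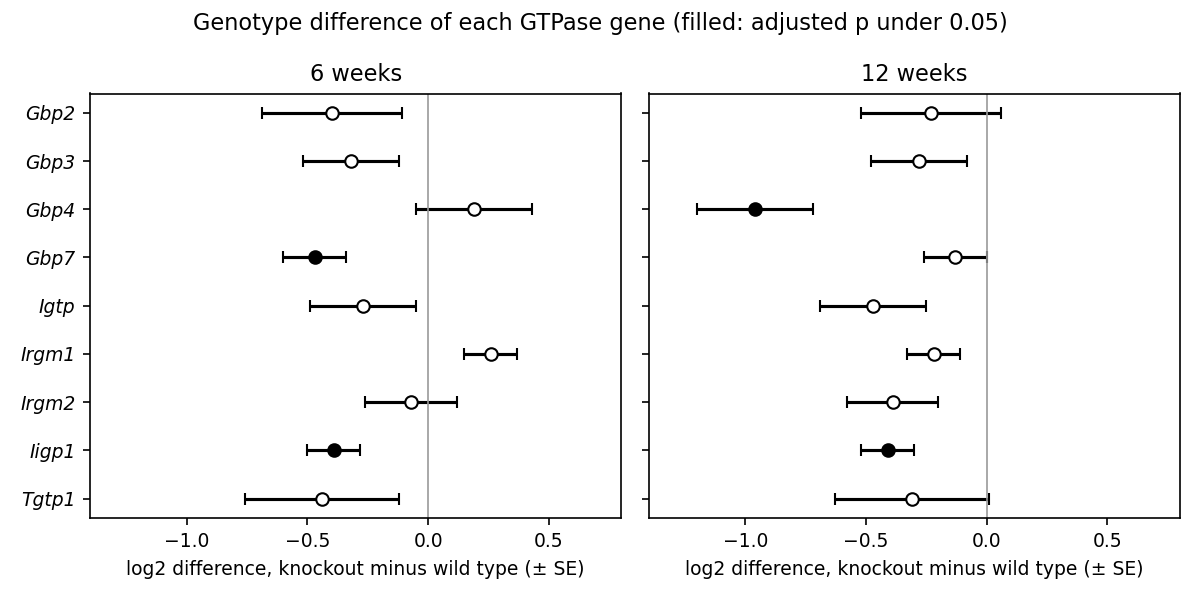
Points give the log2 difference of each gene, knockout minus wild type, at 6 weeks (left) and 12 weeks (right), with bars of 1 SE from limma; filled points passed the adjusted threshold of 0.05. At 12 weeks all 9 points lie below 0, between -0.96 for Gbp4 and -0.13 for Gbp7, and at 6 weeks Gbp4 and Irgm1 lie above 0.

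Counted over the set, 2 of 9 genes were lower and 0 higher in the knockout at 6 weeks. Of all genes tested, 9.35% were lower and 11.7% higher in that comparison. The median difference of the 9 genes was -0.32, against 0.02 over all genes. Groups were apart, with the knockout below, for 2 of 9 members, against 22.5% of all genes. At 12 weeks 2 of 9 were lower, Gbp4 and Iigp1, and 0 higher, against 2.56% lower and 5.65% higher among all genes. The median was -0.31, against 0.01 over all genes. All 9 differences were below 0, whereas 52% of all genes had a difference above 0, and knockout arrays were below all wild type arrays for 3 members, Gbp4, Iigp1 and Irgm1, against 9.87% of all genes.

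Without wild type replicate 3 of 12 weeks, the median was -0.22, 8 of 9 differences were below 0 and 1 gene, Gbp4, was lower. The median was -0.47 without wild type replicate 2 and -0.20 without knockout replicate 2 of that age. No member passed at 12 weeks in 7 of the 12 fits that left out 1 array, namely those without any 12-week knockout array or without replicate 2 or 3 of either 6-week group. Inside slide 2 the median was -0.36, all 9 were below 0 and 0 passed (limma, 2 arrays of wild type). In the average over both ages 2 of 9 were lower and 0 higher, against 7.85% and 12.7% of all genes. With age, 1 of 9 was lower and 0 higher in the wild type, against 4.43% and 4.61% of all genes. Wild type arrays of both ages were apart for Gbp4 (12 weeks above) and Gbp7 (12 weeks below), against 12.5% and 13.5% of all genes. In the knockout 0 of 9 passed in either direction by limma, against 2.93% lower and 3.98% higher among all genes, although the ages were apart, with 12 weeks below, for Gbp4 and Irgm1, against 16.5% of all genes. For the change of the genotype difference with age 0 of 9 passed, against 4.76% lower and 5.58% higher. At an unadjusted p under 0.05 the knockout age comparison held 1 of 9 members, Irgm1, which was lower, against 10.3% of all genes lower at that threshold. The change with age held 2 of 9, Gbp4 and Irgm1, both below 0, against 12.4% of all genes.

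The members varied together from array to array. Over the 8 members well above background on all arrays, each centred on its mean over the 12 arrays, the average was 0.53 on wild type replicate 3 of 12 weeks and -0.41 on knockout replicate 2 of 12 weeks, the ends of the range. Knockout replicates 1 and 2 of 12 weeks had 8 of 8 members below their means. After group means were taken out, all 28 pairs of members correlated above 0 over the 12 arrays, with Pearson's r from 0.04 to 0.93 and a median of 0.679. Without the 2 arrays at the ends of the range the median was 0.571, and all 28 were still above 0. These pairs share the array and its scaling, and the values are descriptions.

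Gbp2 with Gbp3 (r = 0.93), Gbp7 with Irgm2 (0.93) and Igtp with Irgm2 (0.92) were the closest pairs within groups. The 12 lowest values all involved Iigp1 or Irgm1: r was 0.04 between these and 0.05 between Iigp1 and Igtp. In the 12-week knockout the SD over arrays was 0.01 for Iigp1, where it was 0.31 for Igtp, 0.30 for Gbp4 and 0.44 for Gbp2.

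**Figure D3:**
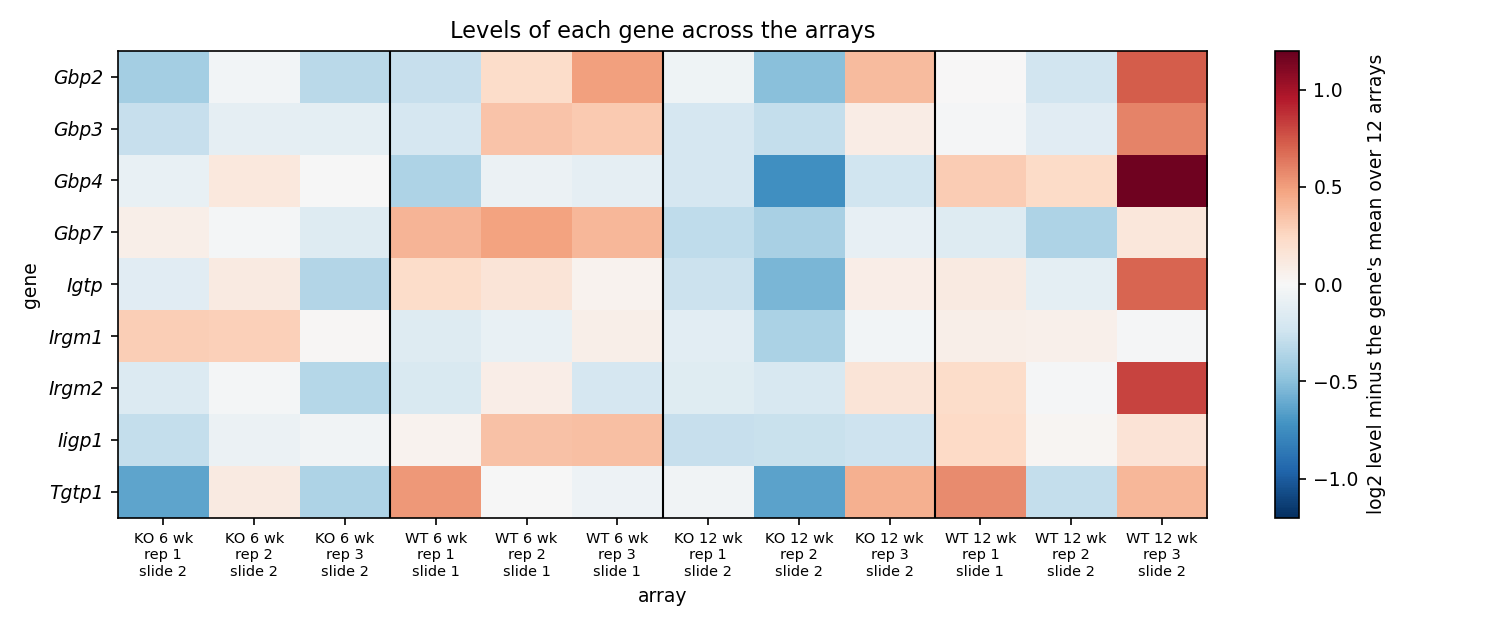
Colours give the log2 level of each gene (vertical axis) on each array (horizontal axis, with group, replicate and slide) minus the gene's mean over the 12 arrays, blue below and red above. Replicate 3 of the 12-week wild type is red for Gbp2, Gbp3, Gbp4, Igtp and Irgm2 but near 0 for Irgm1, and replicate 2 of the 12-week knockout is blue for all 9 genes.

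Genes outside the set were ranked by how closely their levels followed the members' average over the 12 arrays. Symbols that are an accession, clone, array identifier or predicted gene were left out of this ranking. The closest of the rest were Tgtp2 (Pearson's r = 0.929), Ifi211 (0.928), Serpina3f (0.925), Gbp5 (0.924) and B3galt4 (0.916). Without the 2 arrays at the ends of the range r was 0.797 for Tgtp2, 0.823 for Ifi211, 0.745 for Serpina3f, 0.800 for Gbp5 and 0.821 for B3galt4. Tgtp2 and Gbp5 belong to the same GTPase families. Gbp5 averaged -2.06 ± 0.34 in the 12-week knockout and -1.55 ± 0.46 in the 12-week wild type (SD, n = 3 each), a difference that did not pass (limma adjusted p = 0.267).

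Of 14 other GTPase genes tested, listed with the GBP and IRG families, 2 were higher (Ifi47 and Irgq) and 1 lower (Gbp11) in the knockout at 6 weeks. At 12 weeks 0 were higher and 2 lower (Ifi47 and Gvin1, which is of another GTPase family). Among all genes 11.7% were higher and 9.35% lower at 6 weeks, and 5.65% higher and 2.56% lower at 12 weeks. The median difference of the 14 genes was -0.01 at 6 weeks and -0.44 at 12 weeks. Ifi47 (Irgd) averaged 4.32 ± 0.09 in the 6-week knockout and 3.52 ± 0.09 in the 6-week wild type, and 3.46 ± 0.42 in the 12-week knockout and 4.13 ± 0.10 in the 12-week wild type (SD, n = 3 each). The genotypes were apart at both ages and in opposite directions (0.81 ± 0.17 and -0.66 ± 0.17, limma adjusted p = 0.0109 and 0.0438). The gene now named Gbp6 is read by probes that the array files call Mpa2l, outside the set, and its differences of 0.52 at 6 weeks and -0.49 at 12 weeks did not pass.

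Of 13 genes listed for the ligand and its inducers, 8 were tested, and Il12a, Il12b, Il18r1, Il18rap and Eomes were not. Of the 8, Il18 included, 1 was higher and 3 lower in the knockout at 6 weeks, against 11.7% and 9.35% of all genes. At 12 weeks 1 was higher and 1 lower, against 5.65% and 2.56% of all genes. The Ifng probe cleared background on 0 arrays of the 6-week wild type and on all 3 of each other group. It was at least 1.04-fold higher in the knockout at 6 weeks, where a bound compares the brighter mean with the lowest signal that is well above background. The measured means were -4.14 in the knockout and -5.24 in the wild type. The limma adjusted p of 0.0358 belongs to the difference of these measured means, and the bound was not tested. At 12 weeks Ifng averaged -4.00 ± 0.18 in the knockout and -3.93 ± 0.73 in the wild type (adjusted p = 0.921). Apart from Il18, Il12rb1, a subunit of the interleukin-12 receptor, was lower in the knockout at 6 weeks (-0.57 ± 0.13) and higher at 12 weeks (0.62 ± 0.13). Il15 was lower at 6 weeks (-1.06 ± 0.32).

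Of 16 receptor and signalling genes, 1 was lower at 6 weeks and 1 higher at 12 weeks, against 9.35% and 5.65% of all genes. The lower one was the receptor subunit gene Ifngr2, at 1.94 ± 0.04 in the 6-week knockout and 2.42 ± 0.20 in the 6-week wild type (SD, n = 3 each), with a limma adjusted p of 0.016. The higher one was Irf2, an antagonist of IRF1 (0.58 ± 0.12, adjusted p = 0.0212). Ifngr1 and Irf1 passed at neither age. At 12 weeks the knockout minus wild type difference was -0.18 for Ifngr1 and 0.25 for Irf1, and at 6 weeks it was 0.10 for Ifngr1 and -0.32 for Irf1.

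Of 30 other interferon-gamma targets, 2 were higher and 3 lower in the knockout at 6 weeks, and 0 higher and 2 lower at 12 weeks. Among all genes 11.7% were higher and 9.35% lower at 6 weeks, and 5.65% higher and 2.56% lower at 12 weeks. Nlrc5, which drives MHC class I genes, fell by 0.69 at 6 weeks, the immunoproteasome subunit gene Psmb10 fell by 0.46 and the tapasin gene Tapbp, named after its values were seen to complete the count, fell by 0.22 on the log2 scale. Ly6e and the tryptophanyl-tRNA synthetase gene Wars were higher (0.56 ± 0.11 and 0.64 ± 0.16). At 12 weeks Ly6a and Nos2, the inducible nitric oxide synthase gene, were lower (-0.75 ± 0.18 and -0.63 ± 0.16). The median of this list was -0.09 at 6 weeks and -0.18 at 12 weeks. Of 22 genes known for type I interferon, 4 were higher and 1 lower at 6 weeks, and 1 higher and 1 lower at 12 weeks.

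Some markers of several other cell types differed between the genotypes, and the lists were not tested as groups. The counts below stand against 11.7% higher and 9.35% lower among all genes at 6 weeks. At 12 weeks these shares were 5.65% and 2.56%. Of 15 NK and T cell markers tested, 5 were lower and 0 higher in the knockout at 12 weeks, among them Cd3g (-1.77 ± 0.19) and Ccl5 (-0.89 ± 0.19). At 6 weeks 2 were higher and 3 lower. The linear levels of this list summed to 39.3 to 50.6 on 12-week knockout arrays and 66.5 to 106 on 12-week wild type arrays, and at 6 weeks to 48.2 to 64.5 in the knockout and 68.3 to 70.4 in the wild type. Of the list's 20 markers, 5 were not tested for low signal: Cd8a, Trbc2, Ncr1, Klrb1c and Klrk1. Among markers of Kupffer cells and macrophages, 3 of 16 (Cd14, Folr2 and Timd4) were lower at 12 weeks, with overlapping sums of 134.8 to 214.6 in the knockout and 194.0 to 255.1 in the wild type. At 6 weeks their sums were 168.8 to 186.4 in the knockout and 149.1 to 169.0 in the wild type. Of 9 B and plasma cell markers, 1 (Jchain) was lower at 12 weeks, and 0 passed at 6 weeks in limma. Of 5 erythroid markers tested, 3 were higher and 0 lower in the knockout at 12 weeks. At 6 weeks 4 were higher and 1 lower. The erythroid sums were 182.1 to 252.4 in the 12-week knockout and 106.0 to 153.1 in the 12-week wild type, and 168.3 to 276.9 in the 6-week knockout and 101.6 to 116.6 in the 6-week wild type. Of 6 neutrophil and monocyte markers tested, 3 were higher in the knockout at 6 weeks (S100a8, S100a9 and Camp) and 0 passed at 12 weeks. Of 12 hepatocyte markers, 2 were higher and 1 lower in the knockout at 6 weeks, and 1 higher and 2 lower at 12 weeks. Of 8 sinusoidal endothelial markers, 1 was higher and 1 lower at 6 weeks, and 1 higher and 0 lower at 12 weeks. The 9 members summed to 56.4 to 69.5 in the 12-week knockout and 70.1 to 95.8 in the 12-week wild type, and to 63.8 to 73.3 in the 6-week knockout and 71.1 to 80.7 in the 6-week wild type. Such sums weight the brightest probes of a list most, which for the members are those of Iigp1, Igtp, Irgm1 and Irgm2. In whole liver RNA, fewer cells of a type and less RNA per cell cannot be told apart, and the part of these cell types in the members' differences was not tested.

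**Figure D4:**
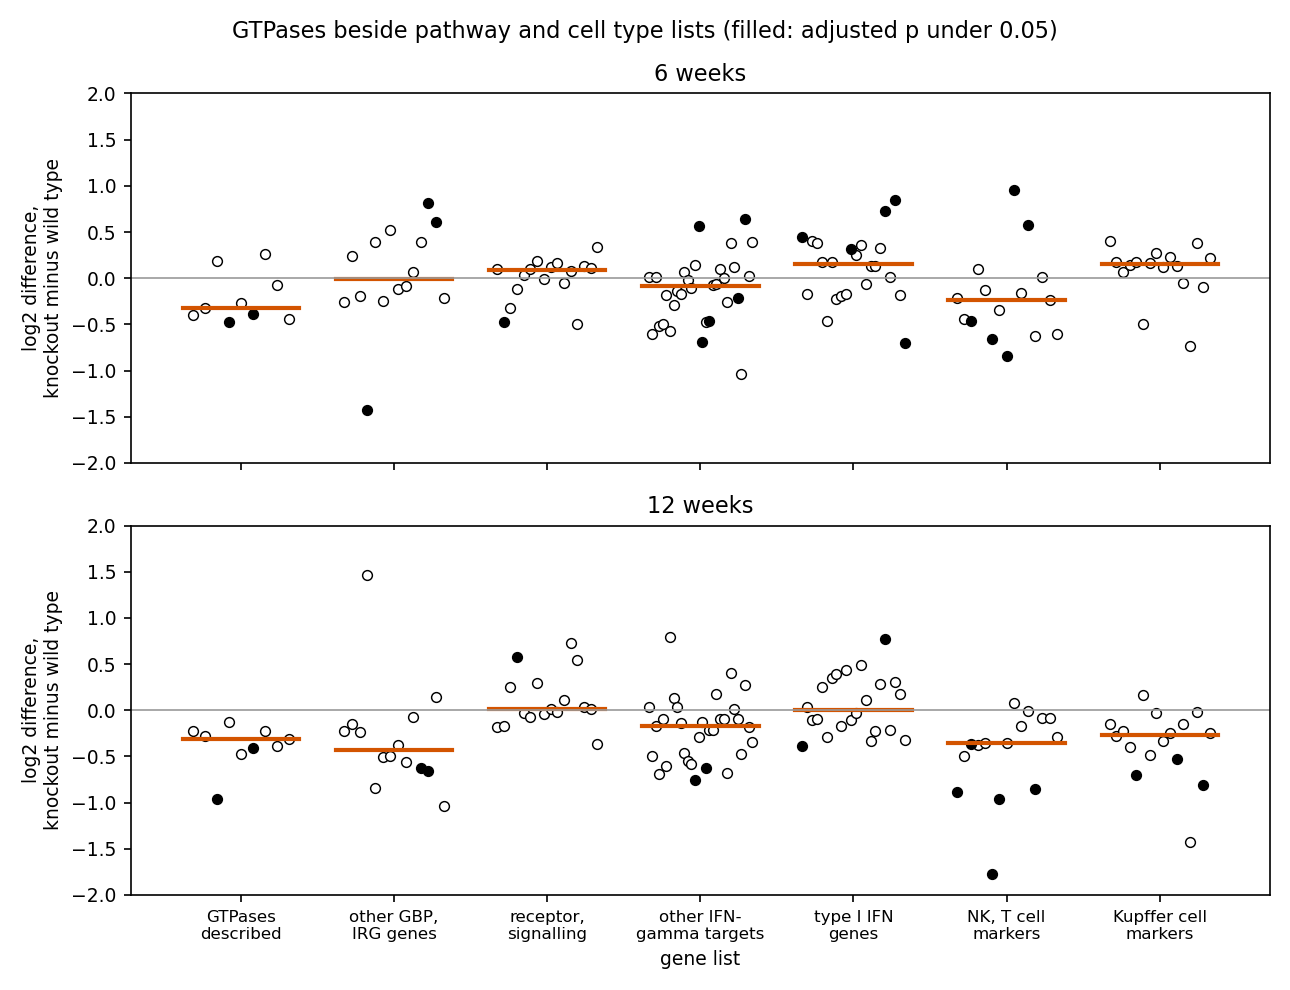
Each point is 1 gene, with its log2 difference, knockout minus wild type, at 6 weeks (top) and 12 weeks (bottom); lists run along the horizontal axis, filled points passed the adjusted threshold of 0.05 and orange lines are medians. At 12 weeks the medians were -0.31 for the described GTPases, -0.44 for the other GTPase list and -0.35 for NK and T cell markers. They were -0.26 for Kupffer cell markers and -0.18 for other interferon-gamma targets. Receptor and signalling genes had a median of 0.01 and type I interferon genes of 0.00. B and plasma cell markers, not plotted, had a median of -0.32.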

How the data were processed

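RNA of 12 whole livers was measured on 1-colour Agilent mouse arrays. Agilent Feature Extraction 10.7.3.1 was the authors' scanner software, per the file headers, and the deposited processed signal is an intensity with background subtracted and no scaling between arrays. The deposited value table holds the same intensity in rounded form (largest difference 0.497%). The probe coordinates of the files are on mm9.

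Control and outlier spots were left out, spots of a probe were averaged, and the deposited intensity was turned into log2 minus the array's 75th percentile (349 to 420 in scanner units). Tested probes were those that every array of some group (3 of 3) read as well above background, and the probe with the highest mean stood for a gene. This left 29807 probes and 22131 genes. Between 50.1% and 57.7% of spots were well above background on an array, 0 spots were saturated, and precision is limited by how many arrays there are. A model of group means was fitted with limma 3.58.1 in R 4.3.3 (lmFit, eBayes), which was tested on simulated data, and promoters were searched in Python 3.11.15. Names came from RefSeq through accessions. The p-values measure the spread between the deposited samples, whose separation before RNA extraction is stated only as biological replication.

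Members and gene lists were chosen with earlier results of these data known. Besides all members, the text names up to 4 passing genes of a list per comparison with the smallest p, Ifng, Ifngr1, Ifngr2 and Irf1 whatever their values (a further gene of that rule is not reported here), Il18 and the 5 genes most like the members' average. Those 5 were picked among genes whose symbol is no accession, clone, array identifier or predicted gene. Alternatives covered background correction, normalization, the filter, probes, the slide, the replicate number, the arrays fitted, the value table and each array left out.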

Additional observations from a re-analysis of the deposited data

Results flagged for a closer look

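No member's genotype difference changed with age past the threshold. Among genes of the related lists, limma found such a change (12 minus 6 weeks, difference of the knockout minus wild type log2 differences) for 19 of 167 genes tested. That is 11.4%, against 10.3% of all genes, so the share is near the background. Of the 19, 3 are on the list of other GTPases: Gbp11 (2.88 ± 0.64, SE), Gvin1 (-1.01 ± 0.19) and Ifi47 (-1.47 ± 0.24). Of the interferon lists, Ly6e (-0.85), Bst2 (-0.83), Zbp1 (-0.73), Stat3 (-0.71), Irf2 (0.71) and Il12rb1 (1.19) changed between the ages. Cell type markers with such a change were Cd3g (-1.11), Cd14 (-0.88), Folr2 (-0.67), Jchain (-1.45), Camp (-0.78), S100a8 (-0.69), S100a9 (-0.97), Alas2 (-1.13), Klf1 (2.17) and Apoa1 (-0.71). The 6-week differences in these contrasts cannot be told apart from the slide.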

How the results depend on the processing

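Counts of members passing the threshold depended on the setting, and no member's called difference changed sign in any. At 6 weeks (2 of 9 as reported), 0 passed with no filter on dim probes, with the slide as a fixed block or as a random block, and 1 with only the groups compared in the fit; leaving out single arrays gave 0 to 2. At 12 weeks (2), 0 passed with no filter, on slide 2 only and with only the groups compared, and 1 with the mean of a gene's probes and with the slide as a fixed or random block; leaving out single arrays gave 0 to 2. For the average of the ages (2), 1 passed with quantile normalization or no filter and 0 with the slide as either block; single arrays left out gave 1 to 2. In wild type with age (1), 0 passed with no filter, either slide block and only the groups compared; single arrays left out gave 0 to 2. In knockout with age (0) 1 passed with normexp, and for the change of the genotype difference (0) 1 with normexp and 1 with genes well above background on all 12 arrays; single arrays left out gave 0 to 1 for the latter. The cause was not tested, except that no filter raises the genes tested to 36095.

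Replicate numbers did not pair the arrays: deviations of same-numbered arrays correlated between -0.086 and 0.180. With the replicate block 1 member passed at 12 weeks and 1 in the average over both ages, and 2 at 6 weeks.

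Over all genes, 4662 passed at 6 weeks, against 585 with the slide as a fixed block and 1229 as a random block. At 12 weeks 1817 passed, against 731 on slide 2 only, 378 with only the groups compared and 825 with no filter. A comparison on slide 2 only was not possible at 6 weeks, in the average or for wild type age. The dim Tgtp1 and Ifng probes limit what their differences show.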
